A study of Homo sapiens with 32 samples.

Results

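Respiratory complexes II to V are the mitochondrial enzymes that take electrons from succinate to oxygen and turn the resulting proton gradient into ATP. Of 35 nuclear-encoded subunits listed for these complexes, 32 were matched by symbol to an entry of the sgRNA count table, out of 18638 genes in all. They comprised 4 subunits of complex II, 8 of complex III, 9 of complex IV and 11 of complex V. Each was targeted by 4 sgRNAs, giving 128 of 74987 sgRNAs. UQCR11, COX6A1 and ATP5PO were not matched to an entry and were not analysed here.

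Complex II, succinate dehydrogenase, links the tricarboxylic acid cycle to the respiratory chain, because it oxidises succinate and hands the electrons to ubiquinone. Complex III passes them from ubiquinol to cytochrome c, and complex IV passes them from cytochrome c to oxygen, both pumping protons on the way. Complex V, the ATP synthase, lets protons flow back through its membrane part and couples that flow to ATP formation in the F1 head. All of complex II is encoded in the nucleus, whereas complexes III, IV and V also hold subunits encoded by mitochondrial DNA, which the list does not include.

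A pooled knockout screen supplied the data, in which CRISPR perturbed RKO, a human colorectal cancer cell line, described in the labels as WT and adherent. Every population carried the same lentiviral transgenes, Cas9 and Kinprola_PKA, a recorder that becomes labeled by the fluorescent substrate CPY-CA when protein kinase A (PKA) is active and that contains EGFP for normalisation. Cells that received the HD CRISPR sublibrary A were labeled and then sorted at day 6, by the ratio of CPY-CA to EGFP signal, into a high population (about 25% of cells), a medium population (about 50%, called basal in the labels) and a low population (about 25%), while T0 denotes the day 0 control. The screen was done as 2 screens, labeled replicates 2 and 3, so that 8 libraries held between 23369720 and 31777138 sgRNA reads after 4 sequencing lanes each were summed. The sequencing reads were of sgRNAs, so the identity of the cells could not be checked against marker genes, and all values come from 1 cell line.

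The first question was whether sgRNAs against the respiratory complexes were distributed unevenly between the high and the low population. An sgRNA with more reads in high than in low marks a knockout found more often among strongly labeled cells. All 4 complex II genes and 7 of the 11 complex V genes were enriched in high over low, by 1.35- to 1.81-fold. None of the 8 complex III genes and none of the 9 complex IV genes passed the same test, and no gene of any of the complexes was depleted. Reads were scaled to the same total per library, and the log2 difference was averaged over the 4 sgRNAs of a gene and tested across both screens with limma at a Benjamini-Hochberg adjusted p of 0.05 over the whole table. At this threshold 979 of 18638 genes, or 5.25%, were enriched in high and 2.73% were depleted, against 11 and 0 of the 32 respiratory genes. The median log2 difference was 0.69 over complex II, 0.44 over complex V, 0.13 over complex IV and 0.10 over complex III, beside -0.01 over all genes. With 1 library left out of a limma fit on libraries, fewer of the 32 genes and fewer of all genes passed. Such a fit keeps 1 library of the high or the low population. The median log2 difference over the 32 genes was then 0.27 without the high library of replicate 2 and 0.34 without that of replicate 3. It was 0.31 without the low library of replicate 2 and 0.22 without that of replicate 3.

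**Figure D1:**
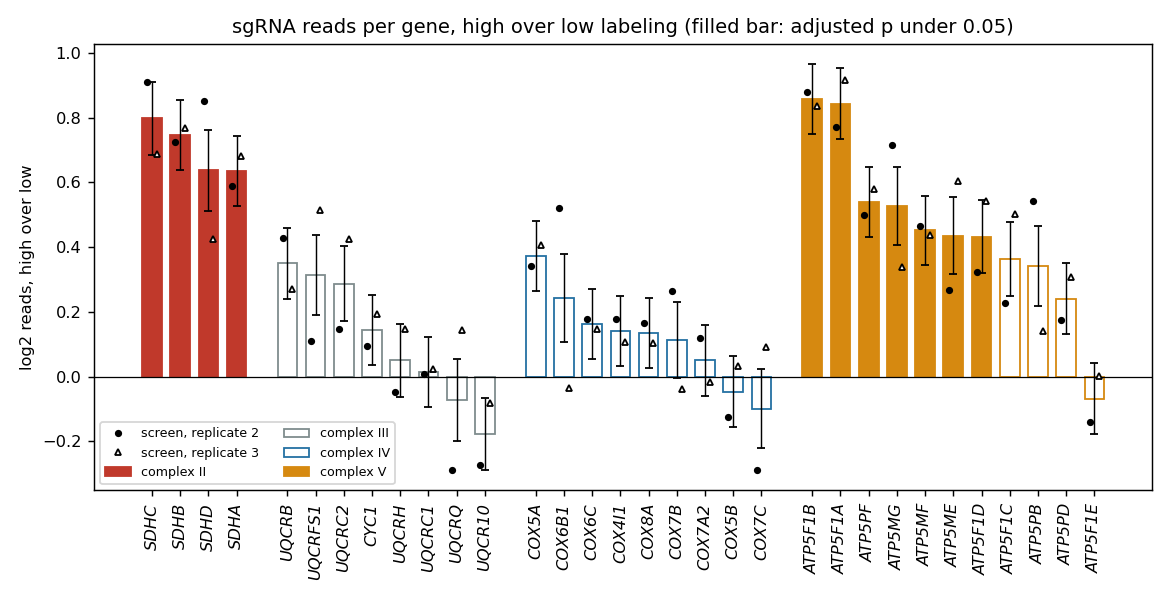
Mean log2 ratio of scaled sgRNA reads in the high over the low population for each of 32 genes (bars, with limma's moderated SE from 2 screens), with each screen as a point. Filled bars passed an adjusted p of 0.05 by limma. All 4 complex II bars and 7 of 11 complex V bars are filled, whereas the bars of complexes III and IV are empty and lie between -0.18 and 0.37.

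SDHA, the flavoprotein subunit that oxidises succinate, lies on chromosome 5 (218303 to 257082, plus strand, GRCh38 with GENCODE 44 annotation). Its sgRNAs together had 1450 scaled reads in low, 1574 in medium and 2101 in high in replicate 2, and 1430, 1604 and 2313 in replicate 3. Both high libraries exceeded both medium and both low libraries. The log2 difference of high over low was 0.64 ± 0.11 (limma's moderated SE, here and after each ±, n = 2 screens, adjusted p = 0.00236), the smallest of complex II.

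SDHB, the iron-sulfur subunit (chromosome 1, 17018664 to 17054032, minus strand), had 863, 1002 and 1465 scaled reads in low, medium and high of replicate 2. In replicate 3 it had 793, 931 and 1372. The reads were again highest in high in both screens, with a log2 difference of 0.75 ± 0.11 (limma adjusted p = 0.000659).

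SDHC and SDHD are the membrane anchors that hold heme b and the ubiquinone site. SDHC (chromosome 1, 161314381 to 161363206, plus strand) had 615 scaled reads in low and 1199 in high in replicate 2, and 639 and 1086 in replicate 3. Its log2 difference of 0.80 ± 0.11 was the largest of complex II (limma adjusted p = 0.000547). SDHD (chromosome 11, 112086824 to 112120016, plus strand) had 428 in low and 777 in high in replicate 2, but 464 and 630 in replicate 3. The 2 screens therefore gave 0.85 and 0.43 on the log2 scale, with a mean of 0.64 ± 0.12 (limma adjusted p = 0.0063).

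In complex V, the F1 head shifted most. ATP5F1B, the beta subunit that holds the catalytic sites (chromosome 12, 56638175 to 56645984, minus strand), had 1027 scaled reads in low, 1471 in medium and 1823 in high in replicate 2. In replicate 3 the values were 1002, 1563 and 1826. Both screens showed a step at each gate, and the log2 difference of high over low was 0.86 ± 0.11 (limma adjusted p = 0.000214), the largest of the 32 genes. ATP5F1A, the alpha subunit (chromosome 18, 46080248 to 46104334, minus strand), rose from 1297 in low through 1893 in medium to 2194 in high in replicate 2 and from 1271 through 1999 to 2504 in replicate 3. Its log2 difference was 0.84 ± 0.11 (limma adjusted p = 0.000279). Both F1 head genes also passed in all 12 alternative tests of this comparison, which held for no other gene of the 32.

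The central stalk, which turns inside the F1 head, was uneven. Only ATP5F1D, the delta subunit, passed, with a log2 difference of 0.43 ± 0.11 (limma adjusted p = 0.0362). ATP5F1C, the gamma subunit, stood at 0.36 (limma adjusted p = 0.0926). ATP5F1E, the epsilon subunit, had 1271 scaled reads in low and 1142 in high in replicate 2, and 1221 and 1203 in replicate 3. Its log2 difference was -0.07 (95% interval -0.31 to 0.17), the smallest of complex V and the only negative one, and 0.04 when centred on sgRNAs without a target.

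Of the peripheral stalk, which holds the F1 head still, ATP5PF (subunit F6) passed. It had 1138 scaled reads in low and 1452 in high in replicate 2, and 1137 and 1584 in replicate 3, a log2 difference of 0.54 ± 0.11 (limma adjusted p = 0.00731). ATP5PB (subunit b) and ATP5PD (subunit d) did not pass, with 0.34 and 0.24. All 3 membrane subunits on the list passed. ATP5MG, subunit g of the dimer interface, had 469 scaled reads in low and 710 in high in replicate 2, and 539 and 698 in replicate 3, a log2 difference of 0.53 ± 0.12 (limma adjusted p = 0.0181). ATP5MF (subunit f) and ATP5ME (subunit e) followed with 0.45 (limma adjusted p = 0.0222) and 0.44 (limma adjusted p = 0.0464). ATP5F1D, ATP5MF and ATP5ME fell outside the rule for naming genes and are named because their values passed. None of the 3 passed when any 1 library was left out, and no other enriched gene outside the F1 head passed in every such fit. Of the other 8 alternative tests, ATP5F1D passed in 8, ATP5MF in 6 and ATP5ME in 5. Some of the enriched genes overlap other coding genes in the annotation, namely ATP5MF (PTCD1, a PTCD1 readthrough gene and CPSF4), ATP5PF (JAM2 and GABPA), ATP5ME (MYL5), and SDHA, SDHD and ATP5MG, each with a gene that has no symbol. Where the sgRNAs cut was not analysed here.

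In complex III, UQCRB, a small accessory subunit, came nearest to the threshold, at 0.35 (95% interval 0.11 to 0.59, limma adjusted p = 0.0899). It passed with sgRNAs of at least 50 reads (limma adjusted p = 0.0424) and centred on sgRNAs without a target (limma adjusted p = 0.035), and in none of the other 10 alternative tests. UQCRFS1, the Rieske iron-sulfur protein, stood at 0.31 and UQCRC2, a core subunit, at 0.29. UQCRC1, the other core subunit, had the smallest change, at 0.01 (95% interval -0.22 to 0.25), and turned to values between -0.02 and 0.00 in 3 alternative tests. Its reads were 1569 in low, 1687 in medium and 1595 in high in replicate 2, and 1607, 1676 and 1677 in replicate 3. The low and high libraries overlapped, and both medium libraries lay above both low libraries. Without adjustment, 3 of the 8 complex III genes had a p under 0.05, beside 3285 of all 18638 genes.

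In complex IV, COX5A, a subunit of early assembly, stood highest at 0.37 (95% interval 0.14 to 0.61, limma adjusted p = 0.0616). Centred on sgRNAs without a target, it passed, with 0.49 (limma adjusted p = 0.0236), whereas it stood at 0.17 with sgRNAs of at least 50 reads (limma adjusted p = 0.514) and at 0.17 in edgeR on summed reads (adjusted p = 0.594). COX5B, the zinc-binding subunit, had the smallest change, with 828 scaled reads in low and 838 in high in replicate 2 and 935 and 966 in replicate 3. Its mean log2 value over sgRNAs was of the opposite sign to these sums, at -0.05 (95% interval -0.29 to 0.20), and its sign changed in 4 alternative tests, up to 0.17, and in replicate 3 alone. The other 7 genes of complex IV lay between -0.10 and 0.24, and only COX5A had an unadjusted p under 0.05.

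**Figure D2:**
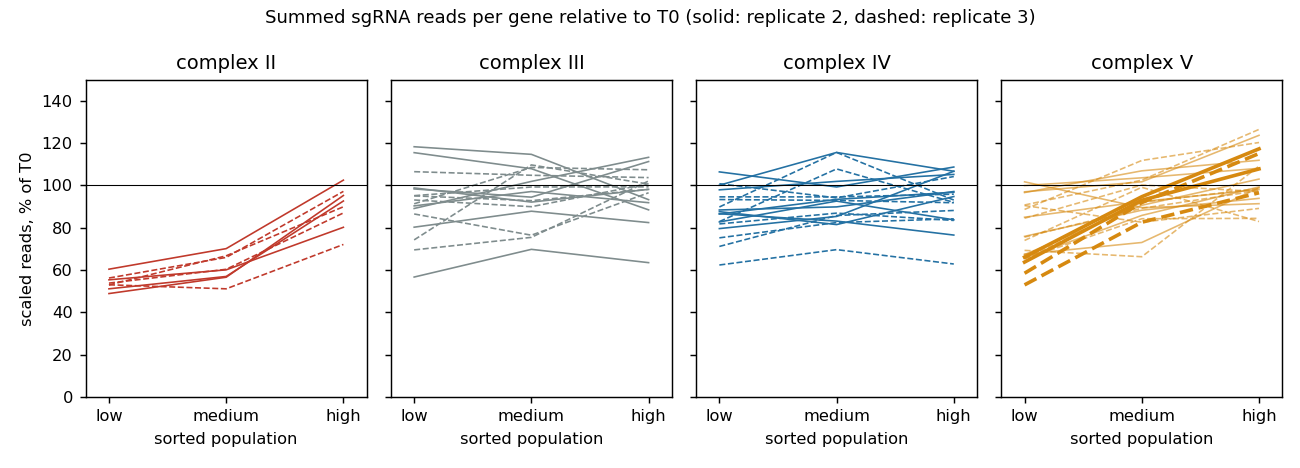
Scaled reads summed over the 4 sgRNAs of each gene in the low, medium and high population, as a percentage of T0 of the same screen (linear axis from 0, the line marks 100%). Solid lines are replicate 2 and dashed lines replicate 3, and the thick orange lines are ATP5F1A and ATP5F1B. Complex II lay at 51.1% to 70.1% in medium and 72.1% to 102% in high, whereas ATP5F1A and ATP5F1B were already at 82.6% to 94.7% in medium.

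Single sgRNAs were tested next. Of 128 sgRNAs, 19 were enriched in high over low and 0 were depleted (edgeR with the screen as a block, adjusted p under 0.05), beside 2.96% of all sgRNAs against genes enriched and 1.54% depleted. Of these 19, 8 of 16 targeted complex II and 11 of 44 targeted complex V. None of the 32 sgRNAs against complex III and none of the 36 against complex IV passed. With 1 library left out, fewer of the 128 sgRNAs passed, and without the high library of replicate 3 a depleted sgRNA was among them. The share of all sgRNAs passing in these fits was not counted. The drop therefore cannot be set against a general one.

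All 4 sgRNAs against ATP5F1A passed, with log2 differences from 0.77 to 0.93 and an SD over sgRNAs of 0.069. For ATP5F1B, 3 of 4 passed. Its sgRNA 1 had 280 scaled reads in low and 582 in high in replicate 2, and 284 and 568 in replicate 3. Its sgRNA 2 went from 104 to 265 and from 156 to 276, and its sgRNA 3 from 365 to 617 and from 270 to 612. Its sgRNA 4 stood apart from these, going from 279 to 359 and from 293 to 371, with a log2 difference of 0.35 (edgeR adjusted p = 0.456).

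SDHC was among the 3 genes whose sgRNAs differed most. Its sgRNA 1 had 131 scaled reads in low and 499 in high in replicate 2, and 180 and 369 in replicate 3, a mean log2 difference of 1.47 (edgeR adjusted p = 1.92e-09). Its sgRNA 4 also passed, at 0.64 (edgeR adjusted p = 0.0326). Its sgRNAs 2 and 3 stood at 0.63 and 0.45 and did not pass. SDHA and SDHB each had 3 sgRNAs that passed. No single sgRNA against SDHD passed although the gene did, and the same held for ATP5F1D, ATP5MG and ATP5PF of complex V. In SDHD, sgRNA 3 gave 0.87 in replicate 2 and -0.63 in replicate 3, at 40 to 83 scaled reads in the low and high libraries.

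The remaining genes with widely spread sgRNAs belonged to complex IV. COX5A rested partly on a sparsely read sgRNA: sgRNA 4 had 5 scaled reads in low and 17 in high in replicate 2, and 9 and 13 in replicate 3, with the highest mean log2 difference of the gene, 1.00. Its other sgRNAs lay between -0.06 and 0.54. The sgRNAs of COX5B lay on both sides of 0, from -0.64 for sgRNA 2 to 0.43 for sgRNA 4. In UQCRB of complex III, sgRNA 2 had 69 scaled reads in low and 191 in high in replicate 2, and 89 and 132 in replicate 3, a mean log2 difference of 1.00, while its other 3 sgRNAs lay between 0.00 and 0.26. Across the 128 sgRNAs, the median sgRNA had 274 scaled reads per library, and 2 averaged under 50 reads.

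The medium population allows the shift between the gates to be split into its sides. In low over medium, ATP5F1A and ATP5F1B were depleted, by 0.60 (limma adjusted p = 0.0173) and 0.59 (limma adjusted p = 0.0198) on the log2 scale, and no other gene of the complexes passed. Among all genes 1.54% were depleted and 1.18% enriched in low over medium. The depletion of ATP5F1A and ATP5F1B was of similar size in both screens, -0.57 and -0.63 for ATP5F1A and -0.59 and -0.58 for ATP5F1B. With any 1 of the 4 libraries left out neither passed, although the values stayed between -0.65 and -0.55. The 4 complex II genes lay between -0.22 and -0.14 in this comparison and did not pass.

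In high over medium, complex II stood at 0.64 for SDHC, 0.52 for SDHB, 0.50 for SDHD and 0.49 for SDHA, whereas ATP5F1B and ATP5F1A stood at 0.27 and 0.24. None of the 32 genes passed (limma adjusted p = 0.0631 for SDHC), beside 1.7% of all genes enriched. Without adjustment 9 had a p under 0.05, including all 4 of complex II, beside 1866 of all 18638 genes. Alternative tests gave between 0 and 7, with 6 from edgeR on summed reads, beside 3.55% of all genes enriched. ATP5MF had the highest value, 0.70 (limma adjusted p = 0.0658), and its value in low over medium was 0.25, which did not pass. The highest value among complexes III and IV was 0.33, for UQCRFS1.

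Relative to T0 of the same screen, the complex II sgRNAs made up 48.8% to 60.4% of their starting reads in low, 51.1% to 70.1% in medium and 72.1% to 102% in high. ATP5F1A was at 63.7% and 58.4% in low, 93% and 91.9% in medium and 108% and 115% in high. ATP5F1B was at 66.1% and 52.9% in low, 94.7% and 82.6% in medium and 117% and 96.5% in high. The medium population thus lay nearer to low for complex II and nearer to high for the F1 head.

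The unevenness about medium, the sum of both sides, was then tested for each gene. It was positive for all 4 complex II genes, from 0.30 for SDHB to 0.48 for SDHC, and negative for ATP5F1A at -0.36 and ATP5F1B at -0.31. Other genes lay in the same ranges, namely UQCRFS1 of complex III at 0.35, and ATP5MG at -0.34 and ATP5ME at -0.32. Of all 32 genes 12 were positive, among them 3 of the 11 of complex V. None of the 32 genes passed (limma), with 2 at an unadjusted p under 0.05, ATP5MF at 0.94 (adjusted p = 0.311) and SDHC (adjusted p = 0.651). Among all 18638 genes, 1279 had an unadjusted p under 0.05. Each alternative test gave 0 as well, and 0.0376% of all genes passed with a positive value. The difference between complex II and the F1 head on this scale was not itself tested.

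**Figure D3:**
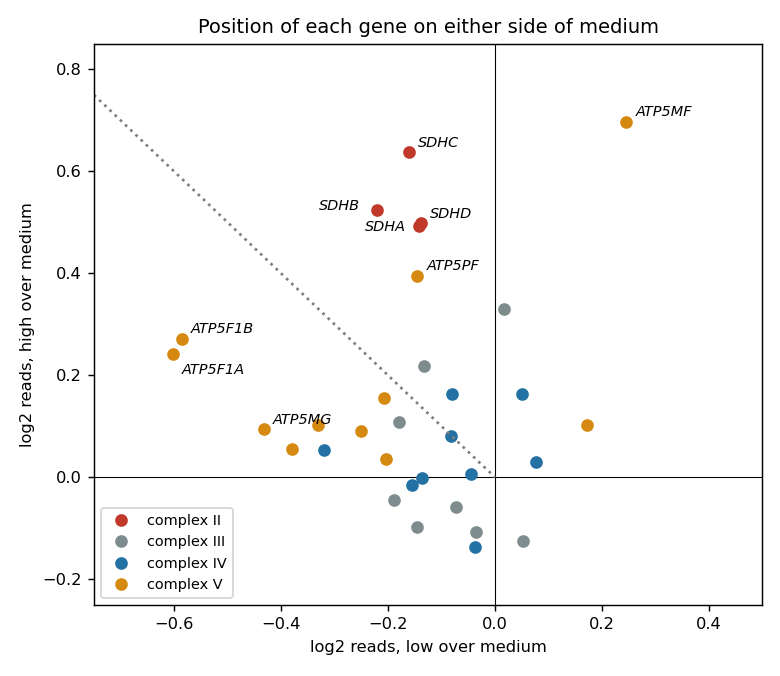
Mean log2 ratio of scaled reads in high over medium (vertical) against low over medium (horizontal) for each of 32 genes, coloured by complex. Points on the dotted line would be shifted equally on both sides of medium. Complex II lies above that line, with 0.49 to 0.64 in high over medium, and ATP5F1A and ATP5F1B lie below it, with -0.60 and -0.59 in low over medium. ATP5MF of complex V is the highest point, at 0.70 in high over medium and 0.25 in low over medium. ATP5MG and ATP5ME also lie below the line.

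The last comparison asked which of the knockouts were lost from the culture between T0 and the sort. The sorted populations were combined with weights of 0.25, 0.5 and 0.25 and set against T0. Loss was found in all 4 complex II genes, in 1 of 8 complex III genes, in 1 of 9 complex IV genes and in 2 of 11 complex V genes. No gene of the complexes was gained. These 8 of 32 genes compare with 8.35% of all genes depleted and 2.54% gained. The median log2 change was -0.66 over complex II, -0.05 over complex III, -0.13 over complex IV and -0.14 over complex V, beside 0.04 over all genes.

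SDHD had fallen by 0.85 ± 0.10 on the log2 scale (n = 2 screens, limma adjusted p = 1.15e-07), from 838 scaled reads at T0 to between 428 and 777 in the sorted libraries of replicate 2 and from 875 to between 447 and 630 in replicate 3. Every sorted library lay below both T0 libraries. SDHC fell by 0.67 (limma adjusted p = 5.5e-06) and SDHA by 0.65 (limma adjusted p = 7.93e-06). SDHB fell by 0.37 (limma adjusted p = 0.00964), less than the other complex II genes, and its high libraries, with 1465 and 1372 reads, were close to T0, with 1429 and 1412.

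COX7B, a nuclear-encoded subunit of complex IV, fell by 0.60 (limma adjusted p = 0.000132), by 0.37 in replicate 2 and by 0.83 in replicate 3. Its T0 reads were 1091 and 1134, against 889 to 1034 in the sorted libraries of replicate 2 and 707 to 789 in those of replicate 3. UQCRH, the complex III hinge protein next to cytochrome c1, fell by 0.48 (limma adjusted p = 0.000689), by 0.56 in replicate 2 and by 0.40 in replicate 3. Its reads went from 1376 at T0 to between 780 and 960 in replicate 2. In replicate 3 they went from 1063 to between 813 and 1026, with the high library close to T0. Of its 4 sgRNAs, 1 was depleted since T0 (edgeR). Neither gene passed in high over low, where COX7B stood at 0.11 and UQCRH at 0.05. In complex II, by comparison, each gene passed in both comparisons.

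ATP5F1A and ATP5F1B changed by -0.13 (95% interval -0.33 to 0.06) and -0.15 (95% interval -0.35 to 0.06) since T0 and did not pass, while holding the largest shifts between high and low. In complex V, ATP5MG and ATP5MF passed, falling by 0.33 (limma adjusted p = 0.0239) and 0.32 (limma adjusted p = 0.0253). Both lay outside the rule for naming genes and are given because the count is small. Across the 32 genes, Pearson's r between the change since T0 and high over low was -0.37, and within complex V it was -0.06 over 11 genes. Both measures share the sorted libraries, so these are descriptions only.

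How much loss is counted depends on the reference. The 278 sgRNAs without a genomic target had risen by a mean log2 of 0.24 since T0, and centring on them moved all genes down by that amount. It gave 28 of 32 genes as depleted, beside 33.4% of all genes (6232 lower and 24 higher, against 1556 and 473 without this centring). The 50 sgRNAs against the AAVS1 safe harbour, which do cut, averaged -0.40, with a median of 0.00 and an SD of 1.15 over sgRNAs. In high over low the sgRNAs without a target stood at -0.11 and those against AAVS1 at 0.08, and centring on the former gave 1273 of all genes higher and 281 lower, against 979 and 508. The part of DNA cutting in the values was not tested. Of the single sgRNAs against the complexes, 18 were depleted since T0 and 0 were enriched (edgeR), 11 of them against complex II, beside 6.28% of all sgRNAs depleted and 1.01% enriched.

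**Figure D4:**
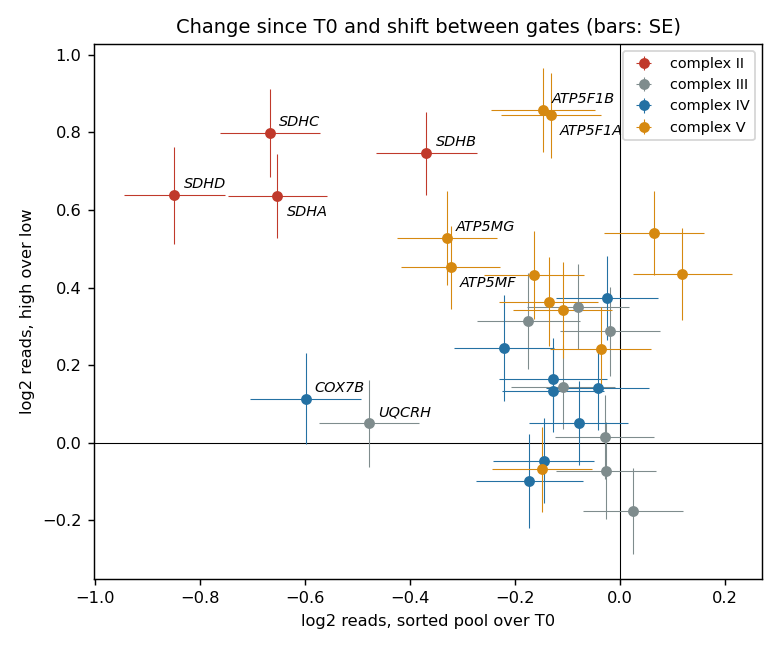
Mean log2 ratio of scaled reads in high over low (vertical) against the sorted pool over T0 (horizontal) for each of 32 genes, with limma's moderated SE as bars and colours by complex. The complex II genes lie at the upper left, ATP5F1A and ATP5F1B at the top near 0 on the horizontal axis, and COX7B and UQCRH at the lower left.

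Genes that feed, assemble or neighbour these complexes were read in the same way. Among all genes, 5.25% were enriched in high over low and 2.73% were depleted. Of 36 complex I subunits, which form the entry point for NADH, 1 was enriched in high over low, NDUFA13 at 0.40 (limma adjusted p = 0.0464), and the median was 0.10. The call of NDUFA13 was lost with the median over sgRNAs (limma adjusted p = 0.0907), in limma without the block (adjusted p = 0.0736) and with any 1 library left out (adjusted p from 0.154 to 0.287). Cytochrome c, the carrier between complexes III and IV, was enriched for its somatic gene CYCS at 0.42 (limma adjusted p = 0.0346). This call was lost in edgeR on summed reads, at 0.21 (adjusted p = 0.518). It was also lost with sgRNAs of at least 50 reads, at 0.23 (limma adjusted p = 0.244). The same held in limma on libraries with the block (adjusted p = 0.161) and without it (adjusted p = 0.195). With any 1 library left out it was lost too, at values from 0.27 to 0.57. None of the 40 assembly factors of complexes II to V passed, nor did any of 11 coenzyme Q genes, 12 genes of mitochondrial DNA expression or 8 other complex V subunits. Without adjustment, the numbers under 0.05 were 5, 1, 2 and 0, respectively, beside 3285 of all 18638 genes. Of the 8 other complex IV subunits and isoforms, the isoform COX4I2 was depleted in high, at -0.40 (limma adjusted p = 0.0437), and centred on sgRNAs without a target it no longer passed, at -0.29. It also did not pass in limma on libraries with the block (adjusted p = 0.0517), nor with any 1 library left out, at values from -0.47 to -0.34.

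Of 14 tricarboxylic acid cycle genes, 3 were enriched in high over low, beside 5.25% of all genes. OGDH, the first enzyme of the 2-oxoglutarate dehydrogenase complex, went from 618 scaled reads in low through 1143 in medium to 2271 in high in replicate 2 and from 502 through 1061 to 2188 in replicate 3. Its log2 difference was 1.87 ± 0.12 (limma adjusted p = 1.07e-06) or 3.65-fold, beside 1.74-fold for SDHC, the largest of complex II. DLST, the succinyltransferase of the same enzyme complex, stood at 0.95 (limma adjusted p = 0.000103), and IDH3A, a subunit of the NAD-dependent isocitrate dehydrogenase, at 0.88 (limma adjusted p = 0.000185). OGDH had also fallen since T0, by 0.81 (limma adjusted p = 3.59e-07), whereas DLST and IDH3A stood at -0.23 each and did not pass.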

How the data were processed

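The deposited table holds whole-number counts of sgRNA reads per lane, which the authors collected and demultiplexed with MAGeCK. Guide sequences and target sites are not in the fields used here. The 4 lanes of a library were summed, and 4 columns matching no sample were not used. Labeling had lasted 30 min at 125 nM of CPY-CA. Gene IDs were named with GENCODE 44 (18482 of 18638). Each library was scaled to a common total, the mean of all libraries, and log2 transformed after adding 1 read. Differences were taken within each screen, averaged over sgRNAs and tested with limma 3.58.1 (R 4.3.3, Benjamini-Hochberg over 18638 genes and 21 control entries). These steps follow the study's methods, which also took core-essential genes of RKO out of the hit list. That filter was not applied here, so the genes that passed are not the study's hit list. The change since T0 used the log2 of the weighted sum of scaled reads. Single sgRNAs with a mean of at least 10 reads were tested with edgeR 4.0.16 (TMM, quasi-likelihood, screen as a block). Only 2 screens per population were available, and reads carry no molecular identifiers. The moderated SE of limma draws on those screens and on the variance over all genes. The spread among the sgRNAs of a gene is not in that SE. Scripts were tested on simulated data.

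The members, the gene lists and the comparisons were chosen with earlier results of these data known. Genes were named by rule: per complex, up to 4 with the largest change among those past the threshold in high over low and the one with the smallest change; up to 6 past the threshold in each other comparison; up to 4 per gene list; and sgRNAs of the gene with the largest change per complex and of the 3 genes whose sgRNAs differ most. Replicate numbers stand for independent screens in the methods. Deviations of same-numbered libraries from their population means correlated at 0.09 (high and low), 0.129 (high and medium) and 0.128 (low and medium). Alternatives were another pseudocount of 5 reads, sgRNAs of at least 50 reads, other scalings and centring, the median over sgRNAs, limma on libraries with and without the block, edgeR, DESeq2 1.42.0 and each library left out.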

Additional observations from a re-analysis of the deposited data

How the results depend on the processing

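With the replicate block in limma on 6 libraries, 9 genes of complexes II to V passed in high over low, 2 in low over medium and 4 in high over medium, and without the block 9, 2 and 1, against 11, 2 and 0 as reported. The shares of all genes in the same direction were 4.45%, 1.18% and 2.08% with the block. Without it they were 3.91%, 0.714% and 1.38%. In high over low the counts were 12 with a pseudocount of 5 reads, 13 with sgRNAs of at least 50 reads, 11 with median-of-ratios size factors, 14 centred on sgRNAs without a target, 11 with the median over sgRNAs and 13 by edgeR on summed reads, and none of these genes was depleted. The shares of all genes enriched were 5.86%, 6.22%, 5.31%, 6.83%, 5.78% and 6.84%, in the same order. Leaving out 1 library keeps 1 library of a population, so for these fits only the median log2 difference over the genes of the complexes is given. In high over low it lay between 0.22 and 0.34, against 0.30 with all libraries. In low over medium it lay between -0.21 and -0.13, against -0.14, and in high over medium between 0.07 and 0.17, against 0.10. In low over medium the median over sgRNAs gave 4 genes of the complexes as depleted, beside 2.61% of all genes. In high over medium the counts were 3 with a pseudocount of 5 reads, 3 with sgRNAs of at least 50 reads, 7 centred on sgRNAs without a target, 5 with the median over sgRNAs and 6 by edgeR. The shares of all genes enriched were 2.24%, 2.23%, 4.66%, 3.23% and 3.55%, in that order. Centring on sgRNAs without a target gave 28 genes depleted since T0, against 8, while the share of all genes rose from 8.35% to 33.4%. Of single sgRNAs, 10 to 13 passed with 1 library left out, against 19, and 14 passed in DESeq2.

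Among the named genes, 3 changed sign in high over low. UQCRC1 reached -0.0026 with the median over sgRNAs, -0.0172 without the high library of replicate 3 and -0.00533 without the low library of replicate 2. COX5B reached 0.0652 centred on sgRNAs without a target, 0.0373 in edgeR, 0.166 without the high library of replicate 2 and 0.0474 without the low library of replicate 3. ATP5F1E reached 0.0427 centred on sgRNAs without a target. In replicate 3 alone, COX5B stood at 0.0322 and ATP5F1E at 0.00159. Without replicate 3 the median over the 32 genes in high over low was 0.25, against 0.30, and that of the unevenness about medium turned from -0.07 to 0.05. The cause of these changes was not tested. The median sgRNA of the 32 genes had 274 scaled reads per library, and the sparsest had 11.5.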
